A study of Mus musculus with 2 samples.

Results

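The miR-9 peaks described here were those whose nearest annotated gene is a miRNA gene with its start within 5 kb of the peak centre. Peaks were kept when the gene name in the deposited table was a miRNA symbol (Mir followed by a digit, or Mirlet) and the tabulated distance to the transcription start site (TSS) did not exceed 5000 bases. Host gene names ending in hg and Mir763 were left out. The rule used only gene name and distance, and it kept 80 of 17922 peaks, which named 71 miRNA genes. No peak kept by the rule named a let-7 gene.

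The peaks came from ChIRP-seq (chromatin isolation by RNA purification, with sequencing) of miR-9 in MLg cells (ATCC CCL-206), a fibroblast line from mouse lung. In this assay, biotinylated oligonucleotides complementary to an RNA pull it out of fixed chromatin, and the DNA bound to it is sequenced. The series held 1 library from the miR-9 capture and 1 library from input chromatin of the same line, with no treatment of the cells given other than the miR-9 probe, which the design text places in the cells and the protocol in diluted chromatin. The deposited table is 1 list of peaks of the capture over the input, and a control-probe capture was not analysed here. There were no replicates, every score in the table was 0, and the table gives no read counts, so the depth behind a peak is unknown, no peak can be called stronger than another, and the cell type cannot be checked against marker genes.

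A miRNA is cut from a hairpin in a longer primary transcript, first by Drosha in the nucleus and then by Dicer in the cytoplasm. The mature strand guides Argonaute to mRNAs through its seed, the bases near its 5′ end, and some mature miRNAs, miR-9 among them, are also found in the nucleus. Many hairpins lie in introns of protein-coding or long noncoding genes and are transcribed from the promoter of the host gene, so the start of a miRNA gene in an annotation is the 5′ end of its hairpin and need not be a promoter.

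The captured RNA and miRNAs whose hairpins lay under one of the 80 peaks are shown here, since the results turn on them. Sequences are from RefSeq on GRCm38.p6, the assembly of mm10, and the capitals mark the seed, bases 2 to 8. Both miR-9 arms come from the Mir9-2 hairpin, and miR-9b-3p is read from the opposite strand of the same place.
miR-9-5p: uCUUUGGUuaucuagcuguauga
miR-9-3p: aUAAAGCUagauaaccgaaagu
miR-9b-3p: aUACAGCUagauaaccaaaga
miR-21a-5p: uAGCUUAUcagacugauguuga
miR-214-3p: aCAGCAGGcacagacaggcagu
miR-29a-3p: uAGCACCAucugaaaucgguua
miR-29b-3p: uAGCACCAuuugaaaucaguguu
miR-467f: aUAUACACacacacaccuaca
miR-1945: uCUUCGCGgguacugucgggac
miR-6236: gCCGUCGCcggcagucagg
miR-6935-3p: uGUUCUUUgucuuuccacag
miR-7214-3p: cUCAGUCCugaccccuugagcgca
miR-8094: aACUGAAGgacaacgagaaga

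Of the 71 gene names, 62 had a mature sequence in the RefSeq table. With the genes whose hairpins shared those peaks, 64 genes gave 106 mature miRNAs with 105 different seeds. The 1 seed found in more than 1 gene was AGCACCA, of miR-29a-3p and miR-29b-3p, whose hairpins lay under 1 peak. Among these genes, Mir9-2 alone carried the seed of miR-9-5p.

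One of the peaks lay over Mir9-2, a gene that encodes the captured miRNA. miR-9 is a conserved regulator of neural development and of proliferation, and its gene has 3 copies in mouse. The exact 23 bases of miR-9-5p occurred at 3 places of the assembled chromosomes, in Mir9-1, Mir9-2 and Mir9-3, and 1 of them was under a peak. That peak, chr13:83738494-83739226 (mm10, 733 bases), covered the Mir9-2 hairpin at chr13:83738814-83738885 on the plus strand, and its centre was 46 bases from the 5′ end of the hairpin. The nearest peak to Mir9-1, on chromosome 3, was centred at -28062 bases from its hairpin, upstream of it, and the nearest to Mir9-3, on chromosome 7, lay at 101449 bases, downstream. The deposited table names the Mir9-2 peak Mir9b-2, the antisense miRNA gene of the same place, at a distance of 16 bases, while its annotation cell cites the RefSeq record of Mir9-2. The probes are complementary to mature miR-9 and so also to 1 strand of these 23 bases of DNA. Without a control capture, DNA held through the RNA and DNA held by the probe cannot be told apart at this locus. The hairpin is printed with both mature arms in capitals, because the whole of it lay inside the peak.
Mir9-2 hairpin: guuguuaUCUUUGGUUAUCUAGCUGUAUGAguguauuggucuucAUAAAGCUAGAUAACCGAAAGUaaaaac

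Relative to the hairpin, peaks lay on either side and sometimes over it. RefSeq placed the gene near the peak for 77 of the 80, and in all 77 the distance recomputed from the hairpin was equal to the deposited one. Of these 77 peaks, 10 covered hairpin bases, 26 lay upstream and 41 downstream of the hairpin. Within 2 kb were 39 of the 80 peaks, and 16 were within 500 bases. Sides and distances were not counted for peaks near other genes, so none can be called more or less frequent here. The 3 peaks outside the 77 named genes that RefSeq has elsewhere. Mir684-1 was named by a peak on chromosome 11 (1267 bases) but is placed on chromosome 2, Mir669c was named on chromosome 12 (163 bases) but is placed on chromosome 2, and Mir466d was named at chr2:5378881-5379841 but starts at base 10511967 of the same chromosome. The distances of these 3 could not be checked here. Just inside the limit of 5 kb were the peaks at Mir196a-1 (-4751 bases), Mir7652 (4757 bases) and Mir7232 (4809 bases), and just outside were those at Mir21a (5106 bases), Mir3108 (-5175 bases) and Mir6897 (5230 bases), where negative distances are upstream.

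**Figure D1:**
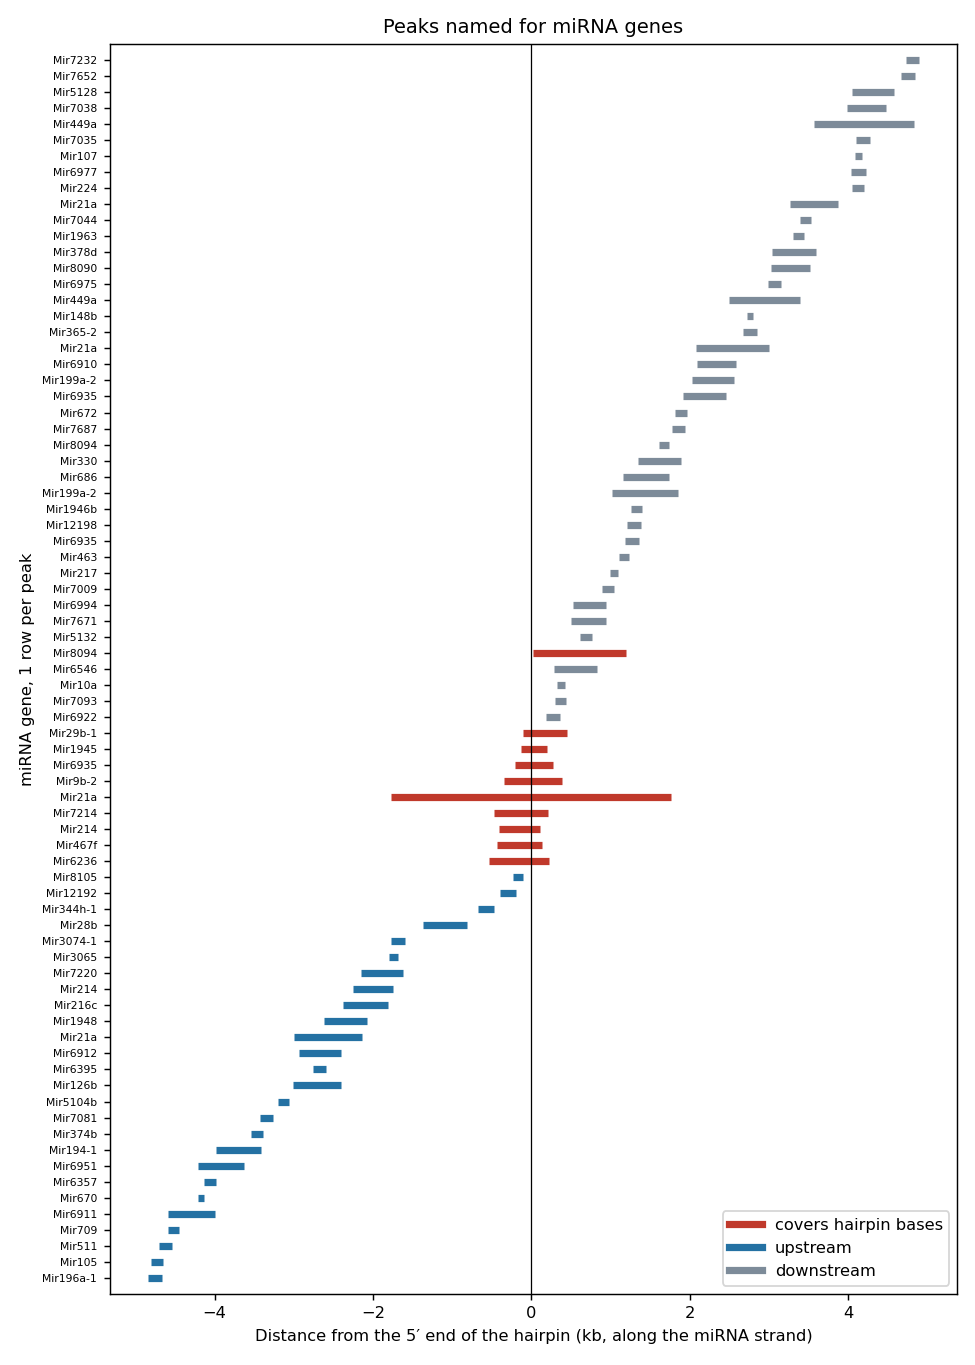
Each bar is 1 of the 77 peaks whose miRNA gene RefSeq places nearby, drawn to its width along the distance from the 5′ end of the hairpin in kb, with the gene named at the left. The 10 red bars cover hairpin bases, 26 blue bars lie upstream and 41 grey bars downstream.

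Peaks over a hairpin belonged to well studied and little studied miRNAs alike. Those at Mir21a, Mir214, Mir29b-1 and the Mir9-2 locus covered hairpins of conserved families, and those at Mir467f, Mir1945, Mir6236, Mir6935, Mir7214 and Mir8094 covered hairpins outside the broadly conserved families listed here. The hairpin was wholly inside 8 of the 10 peaks. At Mir214 the peak covered 103 bases of the hairpin and both mature arms, and at Mir8094 it covered 101 bases. Over all 1228 miRNA genes of the assembled chromosomes, 15 hairpins (1.22%, 95% interval 0.685 to 2.01) lay under a peak of any name. The 15 included Mir29a beside Mir29b-1, and Mir9-2 beside its antisense gene. They also held Mir7067 and Mir3084-1, whose peaks the table names for the snoRNA genes Snora68 and Snora19, and Mir763.

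The 10 peaks over a hairpin were all wide. Widths fell into a narrow and a wide group, split here at 250 bases, and the 80 peaks had 40 of each. Their widths ran from 68 bases at Mir670 to 3537 bases at Mir21a, with quartiles of 154.8, 262 and 560 bases, and the median was 410 bases without the 7 peaks in high-copy sequence and 178 without loci of several peaks. The 10 over a hairpin had a median of 622 bases (order-statistic 95% interval 480 to 1183), and the other 70 a median of 178 bases (166 to 496). These intervals overlapped between 480 and 496 bases, and a wide peak reaches a nearby hairpin more easily than a narrow one. The other 2810 peaks within 5 kb of a TSS had a median of 492 bases (478 to 505), and 60.1% of them (58.2 to 61.9) were wide, against 50.0% (38.6 to 61.4) of those at miRNA genes. The 10 widest peaks at miRNA genes were 3 at Mir21a (3537, 921 and 861 bases), 2 at Mir449a (1266 and 899), and 1 each at Mir684-1 (1267), Mir8094 (1183), Mir466d (961), Mir199a-2 (833) and Mir6236 (751). The list merges calls at more than 1 fragment shift, and the part of that merging in the widths was not tested.

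Several peaks gathered at a few loci. Most genes, 65 of the 71, had 1 peak, and 6 genes had 15 peaks between them, with 4 at Mir21a, 3 at Mir6935 and 2 each at Mir199a-2, Mir214, Mir449a and Mir8094. Peaks per gene were not counted for genes of other types, so several peaks cannot be called particular to miRNA genes.

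miR-21 is induced by TGFB in lung fibroblasts and promotes fibrosis. Its hairpin at chr11:86584067-86584158, on the minus strand, lies in the annotated span of Vmp1, which codes for a protein of autophagosome formation. The 4 peaks within 5 kb had centres at -2572, -11, 2538 and 3571 bases from the hairpin and widths of 861, 3537, 921 and 606 bases. A further peak of 1483 bases, centred at 5106 bases, was just beyond the limit. Together the 5 peaks covered 7408 bases within 10 kb of the hairpin, and only the widest reached the hairpin itself. None of them was in high-copy sequence, as defined below.

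Mir199a-2 and Mir214 are cut from Dnm3os, a long noncoding RNA on the opposite strand of the dynamin gene Dnm3, and both miRNAs are profibrotic in several tissues. The Mir199a-2 hairpin starts at base 162217814 of chromosome 1 and the Mir214 hairpin at base 162223368. Measured from the Mir199a-2 hairpin, 4 peaks had centres at 1432, 2293, 3553 and 5402 bases, with widths of 833, 520, 507 and 509 bases. The first pair was named for Mir199a-2 and the second pair for Mir214, and the last of the 4 covered hairpin bases of Mir214. HOMER, the program that annotated the peaks, called 3 of them exonic sequence of the noncoding RNA. All 4 lay between the 5′ ends of both hairpins or over Mir214, and none covered the Mir199a-2 hairpin.
miR-199a-5p: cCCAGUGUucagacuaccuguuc
miR-199a-3p: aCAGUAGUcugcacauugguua

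Mir29b-1 and Mir29a are neighbours on the minus strand of chromosome 6, and miR-29 represses collagen and other extracellular matrix genes. Here 1 peak, chr6:31062647-31063197 (551 bases), held both hairpins, Mir29a at chr6:31062660-31062747 and Mir29b-1 at chr6:31063023-31063093. It carried the name Mir29b-1, with its centre 171 bases from that hairpin. The next peaks in the locus were 6720 and 7659 bases away and lay beyond the limit.

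At the other loci with several peaks the hairpin sat in a protein-coding host. Mir449a, of a family that works with miR-34 in multiciliated epithelial cells, lies in an intron of Cdc20b and had peaks of 899 and 1266 bases centred 2942 and 4200 bases downstream. Neither covered a hairpin. Mir6935 lies in Actg1, the gene for cytoplasmic gamma-actin, and had peaks of 480, 178 and 534 bases at 27, 1269 and 2186 bases. The first covered the hairpin, and the second was in high-copy sequence. Mir8094 lies in Ddx39b, which codes for an RNA helicase of mRNA export, with peaks of 1183 and 125 bases at 607 and 1671 bases. Another peak in Ddx39b, of 165 bases, was named for Mir6975, and its centre was at -4150 bases from Mir8094, upstream of it.

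**Figure D2:**
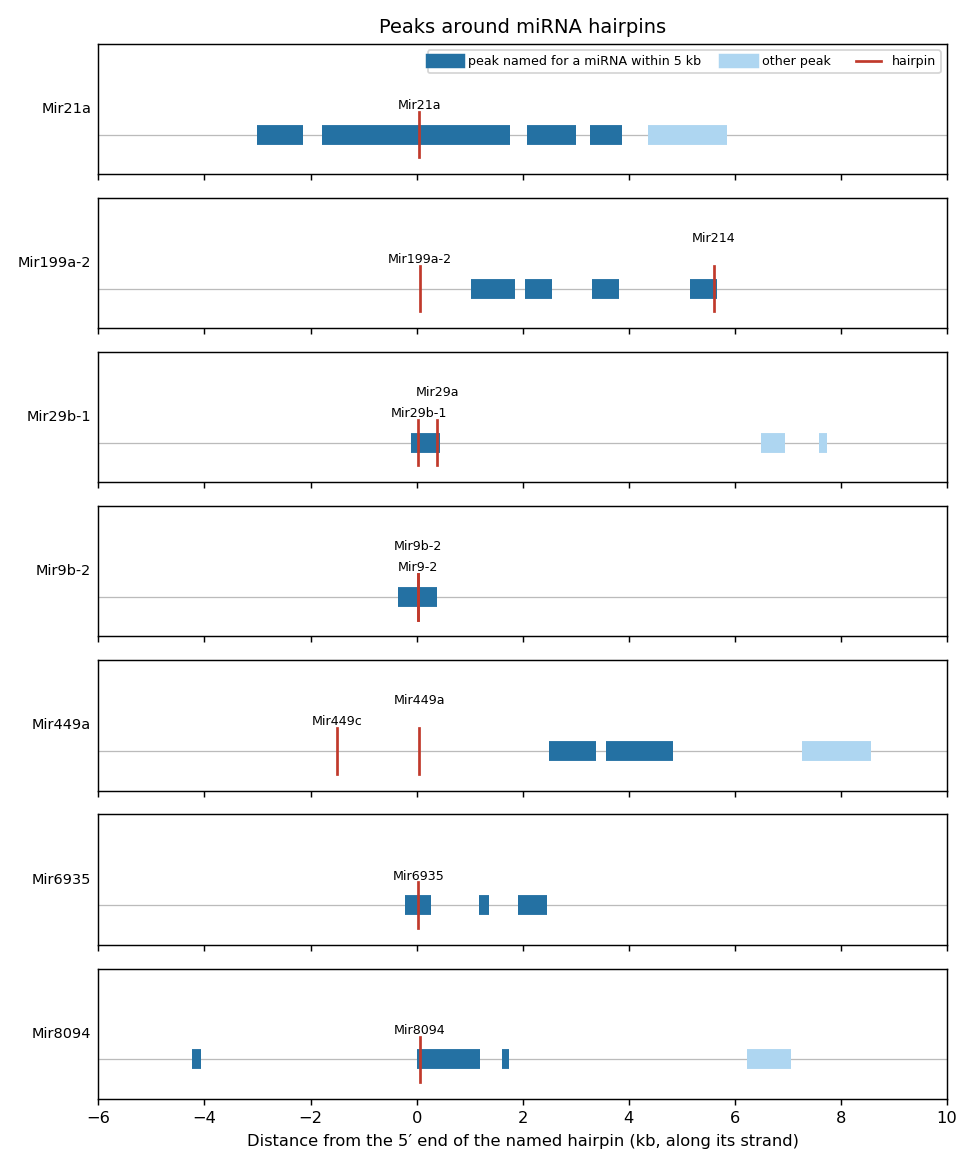
Each panel is 1 locus, with the distance in kb from the 5′ end of the hairpin named at the left along its strand. Dark bars are peaks named for a miRNA gene within 5 kb, light bars are other peaks, and red lines are hairpins with mature sequences or hairpins in the RefSeq table. The 4 dark bars and 1 light bar at Mir21a cover the most sequence of the 7 panels, and the dark bar at Mir29b-1 spans 2 hairpins.

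As a class, miRNA genes were near a peak of any name about as often as all genes were. A peak centre of any name lay within 5 kb of 124 of 1228 miRNA genes (10.1%, 8.47 to 11.9), against 4760 of 49598 RefSeq genes of every type (9.6%, 9.34 to 9.86). The share was 11.3% (10.8 to 11.7) for protein-coding genes, 8.0% (7.53 to 8.49) for lncRNA genes and 15.6% (13.7 to 17.6) for snoRNA genes. The interval for miRNA genes included the share over all genes and did not reach that of snoRNA genes. By the gene that HOMER named, 68 miRNA genes (5.54%, 4.33 to 6.97) had a peak, beside 4.98% (4.79 to 5.18) of all genes, 9.85% (9.45 to 10.3) of protein-coding, 1.42% (1.22 to 1.64) of lncRNA and 2.26% (1.53 to 3.2) of snoRNA genes. These intervals are exact binomial (Clopper-Pearson), cover counting error only, and treat clustered genes as separate. HOMER names only the nearest gene, so a gene near a peak can go unnamed. By naming, miRNA genes stood above snoRNA genes, and by any peak below them, so the naming shares do not compare classes by peak placement.

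The miRNA genes were also split by where the hairpin sits in other genes. A peak was near 67 of 704 miRNA genes in a protein-coding gene on the same strand (9.52%, 7.45 to 11.9) and 13 of 115 in a lncRNA gene on the same strand (11.3%, 6.16 to 18.6). It was near 16 of 137 on the opposite strand of a gene or in a gene of another type (11.7%, 6.82 to 18.3) and 28 of 272 outside other genes (10.3%, 6.95 to 14.5). All 4 intervals overlapped one another and included 10.1%.

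Lists of miRNAs by tissue or family gave shares from 0 upward. Among 35 miRNA genes known from fibroblasts and fibrosis, 10 had a peak within 5 kb (28.6%, 14.6 to 46.3), beside 10.1% of all miRNA genes. They were Mir21a, Mir199a-2, Mir214, Mir29a, Mir29b-1, Mir10a, Mir22, Mir23b, Mir27b and Mir24-1, and they came from 6 of the 24 loci of the list. The list was compiled with peaks of this table already known, so its share is a description. HOMER named 5 of the 10 for the miRNA itself. A peak of 99 bases lay 369 bases from Mir10a, a miRNA within the Hox B cluster. Mir22 shared a peak of 580 bases, centred at -4530 bases from its hairpin, that was named for its host gene. Mir23b, Mir27b and Mir24-1 form a cluster in an intron of Aopep, and the 1 peak near them, of 182 bases, was named for Mir3074-1, on the opposite strand of Mir24-1. Among the list genes without a peak were Mir143 and Mir145a, which are abundant in smooth muscle and myofibroblasts, and Mir155.

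Of the 4 genes here that encode the miRNAs the study groups with miR-9, 2 had a nearby peak (50.0%, 6.76 to 93.2). One was Mir29b-1, and the other was Mir126a, an endothelial miRNA of angiogenesis in an intron of Egfl7. Its nearest peak (601 bases, centre 2770 bases downstream) was named for Mir126b, on the opposite strand. Neural miRNAs had peaks at 3 of 15 genes (95% interval of the share 4.33 to 48.1%), Mir132, Mir212 and Mir219a-1, in 2 loci, each at a peak named for another gene (Hic1 or H2-Ke6). Epithelial miRNAs had peaks at 3 of 14 (21.4%, 4.66 to 50.8), in 2 loci, Mir449a and the neighbours Mir141 and Mir200c, whose shared peak of 858 bases was named for Phb2. The intervals of all these lists included 10.1%, the share over all miRNA genes.

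No gene of some lists had a peak within 5 kb. These were the 12 let-7 genes (upper 95% limit 26.5%), the 15 genes of miR-17-92 and its paralogous clusters (21.8%), 8 blood miRNAs (36.9%), 9 muscle miRNAs (33.6%), 11 embryonic stem cell miRNAs (28.5%) and 45 genes of the imprinted Dlk1-Dio3 cluster (7.87%). The share over all miRNA genes was 10.1%, which lay below each of these limits except that of the Dlk1-Dio3 cluster. All these limits count clustered genes as separate, and the Dlk1-Dio3 genes lie in 4 loci. The rodent families miR-466, miR-467, miR-669 and miR-297 had 1 peak among 81 genes in 11 loci (1.23%, 0.0313 to 6.69), at Mir467f. Mir669c and Mir466d, of the same families, were named by peaks too but are not in this count, since RefSeq places their hairpins elsewhere. Of 209 genes in broadly conserved families, 33 had a peak (15.8%, 11.1 to 21.5), in 21 of 144 loci. That interval lay above 10.1%, but it counts clustered genes as separate. The list was also chosen with earlier results of these data known, so its share is a description. The 33 include the 10 genes with a peak on the fibroblast list. Others among the 33 were Mir107, Mir148b, Mir194-1 with Mir215, Mir196a-1, Mir216b with Mir216c, Mir217, Mir28b, Mir338, Mir365-2, Mir449b, Mir449c and Mir219c.

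**Figure D3:**
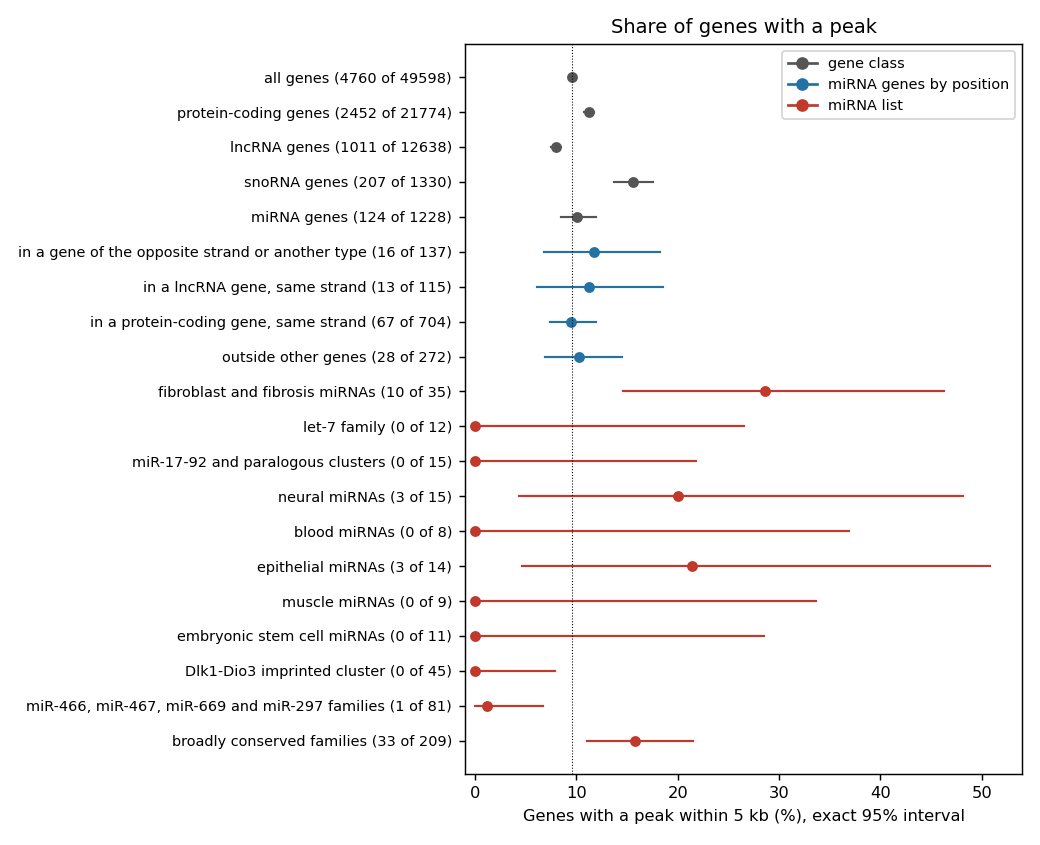
Points are the share of genes with a peak centre within 5 kb of the 5′ end, in percent, with exact 95% binomial intervals, for gene classes (grey), miRNA genes by position (blue) and miRNA lists of 8 or more genes (red). The dotted line is the share over all genes, 9.6%, and the points for the lists run from 0 to 28.6%, with clustered genes counted separately.

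Chromosome 11 carried many of these peaks. It held 18 of the 80, against 1313 of all 17922 peaks and 88 of the 1228 miRNA genes, and 4 of the 18 were at Mir21a and 3 at Mir6935. The X chromosome held 7 of the 80, all of them at genes with 1 peak, and its share of all peaks was not counted here. By the feature HOMER gave, 32 peaks were intronic, 15 were at a promoter or TSS, 13 at a transcription termination site and 13 intergenic. The remaining 7 were 3 in exons, 3 in noncoding exons and 1 in a 3′ UTR. These features were not counted over all peaks, so none can be called more or less frequent here. A repeat element was named for 19 of the 80 (23.8%, 14.9 to 34.6), with 6 LINE and 6 SINE elements, against 26.4% (24.8 to 28.1) of the other peaks near a TSS and 48.7% (48.0 to 49.4) of all peaks.

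Peaks in sequence with many copies can hold reads of another copy, so copy number was measured. Each peak was read as overlapping 32-base words, and it counted as high copy if the majority of these words had 5 or more exact copies in the genome. This held for 7 of the 80 peaks (8.75%, 3.59 to 17.2), at Mir5104b, Mir378d, Mir6935, Mir148b, Mir1948, Mir6357 and Mir672. The share was 8.33% (7.33 to 9.41) among the other peaks near a TSS and 21.5% (20.9 to 22.1) over all peaks. None of the 10 peaks over a hairpin was high copy.

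The study is about G-quadruplexes, folded structures of guanine-rich DNA, so the motif was counted too. It needed 4 stretches of 3 or more G, or of C on the other strand, joined by loops no longer than 7 bases. The motif was in 3 of the 80 peaks (3.75%, 0.78 to 10.6), 2 at Mir21a and 1 at Mir5128, beside 282 of 2810 other peaks near a TSS (10.0%, 8.95 to 11.2) and 5.65% (5.31 to 5.99) of all peaks. Where loops could reach 12 bases it was in 8 (10.0%, 4.42 to 18.8) against 17.1% (15.7 to 18.5) of the others near a TSS and 9.21% (8.79 to 9.64) of all peaks. The intervals at miRNA genes overlapped both of the others at either loop length. The median GC content was close, at 46.5% and 46.1%.

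The last question was whether the peaks held words of miR-9 itself. A word of 8 bases of miR-9-5p, on either strand, was in 28 of the 80 peaks (35.0%, 24.7 to 46.5), in 27.6% (25.9 to 29.3) of the other peaks near a TSS and in 26.4% (25.8 to 27.1) of all peaks. Among wide peaks the share was 55.0% (38.5 to 70.7) at miRNA genes and 38.7% (36.4 to 41.1) elsewhere near a TSS, and among narrow peaks it was 15.0% (5.71 to 29.8) and 10.9% (9.11 to 12.8). The intervals overlapped in each pair. Per kb of sequence, 0.81 peaks with a word were found at miRNA genes and 0.558 at the others. The difference depended on the word length. With words of 7 bases the share was 53.8% at miRNA genes, 56.8% at the others near a TSS and 54.3% over all peaks. With words of 10 bases it was 6.25%, 5.77% and 6.04%. Per kb, peaks at miRNA genes and the others had 1.24 and 1.15 for 7 bases, and 0.145 and 0.117 for 10 bases. Of the 10 peaks over a hairpin, 7 held a word of 8 bases (70.0%, 34.8 to 93.3). All 10 were wide, and this interval included the 55.0% of wide peaks at miRNA genes. Among the 7 was the peak over a gene of miR-9-5p, which holds the word whatever the capture did. The count therefore does not link such words to hairpins. The longest run shared with miR-9-5p had a median of 7 bases in both sets.

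**Figure D4:**
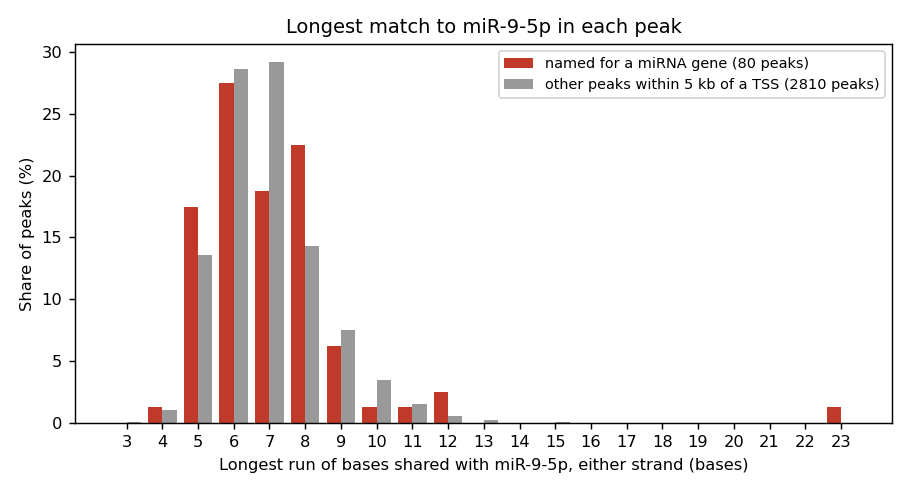
Bars give the share of peaks, in percent, by the longest run of bases shared with miR-9-5p on either strand, for the 80 peaks named for miRNA genes (red) and the 2810 other peaks within 5 kb of a TSS (grey). Both sets have a median of 7 bases, and the bar at 23 bases is the Mir9-2 locus.

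A run of 12 or more bases was found in 3 of the 80 peaks (3.75%, 0.78 to 10.6) and in 22 of the 2810 others (0.783%, 0.491 to 1.18), and these intervals overlapped. One was the Mir9-2 locus, which encodes miR-9-5p and so holds all 23 bases whatever the capture did. Another was the peak of 570 bases near Mir216c, in the region of the miR-216 and miR-217 genes, with bases 5 to 16 of miR-9-5p at -68 bases from its centre, to the left of it. The third was the peak of 601 bases near Mir126b, with bases 11 to 22 at 70 bases from its centre. A run of 9 or more bases was in 10 of the peaks, and 9 of these stretches are shown. The run near Mir7220, bases 9 to 19, is given by position only. Each stretch shown is read on the strand that matches miR-9-5p with 20 flanking bases on either side and the shared run in capitals.
Mir9b-2, chr13:83738801-83738863, plus strand: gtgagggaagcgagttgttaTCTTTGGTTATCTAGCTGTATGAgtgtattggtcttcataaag
Mir216c, chr11:28748270-28748321, plus strand: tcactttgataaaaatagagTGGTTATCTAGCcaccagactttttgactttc
Mir126b, chr2:26594171-26594222, minus strand: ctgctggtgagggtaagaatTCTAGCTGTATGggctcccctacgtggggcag
Mir6994, chr19:11924590-11924639, minus strand: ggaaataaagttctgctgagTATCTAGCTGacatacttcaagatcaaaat
Mir199a-2, chr1:162220133-162220181, plus strand: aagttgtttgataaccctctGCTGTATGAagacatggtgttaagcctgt
Mir6951, chr15:38494518-38494566, plus strand: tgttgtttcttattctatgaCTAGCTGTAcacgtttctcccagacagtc
Mir686, chr14:54615466-54615514, minus strand: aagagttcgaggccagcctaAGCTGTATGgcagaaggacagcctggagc
Mir12192, chr19:3851083-3851131, plus strand: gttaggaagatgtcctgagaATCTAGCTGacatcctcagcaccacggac
Mir105, chrX:72596281-72596329, minus strand: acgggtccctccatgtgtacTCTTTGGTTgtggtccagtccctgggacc

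Of the 10 runs, 2 held the whole seed of miR-9-5p, at the Mir9-2 locus and near Mir105, and 7 lay wholly after the seed, in the 3′ part of the miRNA. The run near Mir216c held part of the seed. A run of shared letters is a description of the sequence under a peak and says nothing of how the RNA was held there.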

How the data were processed

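The authors aligned single-end reads with Bowtie2 to mm10, removed duplicates, called peaks with MACS over the input at a p-value cutoff and more than 1 fragment shift, merged the calls with bedtools and annotated them with HOMER. The submitters' processing notes name Trimmomatic 0.36, SAMtools and deepTools. The deposited score column was 0 in every row and was not used, so no stricter threshold could be set.

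Annotation cells split at commas were rejoined in 8093 rows. Hairpins, gene positions and sequences were from RefSeq GRCm38.p6, read with pandas 2.3.3 and pysam 0.24.0. Named miRNAs were the listed miRNAs with a peak, those with a hairpin under their peak or with several peaks, the 10 widest peaks, and the peaks beside the 5 kb limit. The members, lists and rules were chosen with earlier results of these data known. Stretches shown for a shared run, and other peaks named in the text, were chosen after their values were seen. Shares have exact 95% binomial intervals, and the counting steps were checked on simulated data. With 1 capture library and 1 input library there was no test between groups. Alternatives were the distance, the width class, high-copy peaks, the word and loop lengths, and counting by locus.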

Additional observations from a re-analysis of the deposited data

How the results depend on the processing

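The number of miRNA genes named by a nearby peak, 71, moved with the distance, to 23 within 1 kb, 37 within 2 kb and 115 within 10 kb, and to 33 with wide peaks only. The share of annotated miRNA genes with a peak, 5.54% by HOMER's naming, was 10.1% for any peak within 5 kb of the hairpin, 2.77% within 2 kb, 2.52% with wide peaks only and 7.0% when miRNA genes within 10 kb of each other counted as 1 locus. The share of peaks over a hairpin, 12.5%, was 25.0% among wide peaks. The share with a miR-9-5p word, 35.0% for 8 bases, was 53.8% for 7 bases, 6.25% for 10 bases and 55.0% among wide peaks. Leaving out high-copy peaks moved none of these shares, nor the median width, beyond its interval. Some alternatives were chosen after seeing the data. Leaving out chromosome 11, the Mir9-2 peak or loci with several peaks, and counting any hairpin, did not do so either. The median width of 262 bases was still 178 without loci of several peaks and 410 without high-copy peaks. The number of genes has no interval, and it was 65 without high-copy peaks and 68 without genes that RefSeq places elsewhere. No replicate could be left out, and without read counts no limit from depth can be given. No paired analysis was possible because there was 1 library of each kind.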

Other observations

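At any distance, 608 of the 17922 peaks had a miRNA gene as their nearest gene, and they named 313 miRNA genes.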
